A study of Mus musculus with 9 samples.

Results

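Transcripts of 10 genes that take glucose into the cell and carry it on to lactate were measured in Dmdmdx mouse embryonic fibroblasts (MEFs). The genes were chosen by name as 3 glucose transporters (Slc2a1, Slc2a3, Slc2a4), 2 hexokinases (Hk1, Hk2), 2 enzymes of the middle of glycolysis (Gpi1, Tpi1), pyruvate kinase (Pkm) and 2 lactate dehydrogenase subunits (Ldha, Ldhb). They are 10 of the 35675 genes in the tables, and all 10 passed the filter on low counts that left 15714 genes for testing. RNA selected for poly(A) was sequenced from 9 libraries. There were 3 from MEFs given MyoD together with the small molecules F/R/C, 3 from MEFs given MyoD alone, and 3 from MEFs with no treatment. All carried the Dmdmdx genotype, a mutation of the dystrophin gene used to model Duchenne muscular dystrophy, so none of the comparisons involves cells with intact dystrophin. MyoD, the product of Myod1, is a transcription factor that switches fibroblasts toward skeletal muscle. The labels give neither the delivery nor the promoter of MyoD, nor the full names, doses and times of F/R/C. They number the libraries 1 to 3 in each group without naming separate cultures or embryos, so the spread within a group, on which every p-value rests, may be technical.

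Glucose enters cells through facilitative transporters of the SLC2 (GLUT) family and is trapped by hexokinases as glucose 6-phosphate. Glycolysis then converts it to pyruvate, which lactate dehydrogenase turns into lactate when it is not passed to the mitochondria. Skeletal muscle is known for particular members of these families. It uses GLUT4, a transporter that insulin and contraction bring to the cell surface, hexokinase 2, and the M1 form of pyruvate kinase. Proliferating cells and fibroblasts mainly use GLUT1 and the M2 form, and hexokinase 1 is the broadly expressed hexokinase.

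The M1 and M2 forms both come from Pkm, which splices in 1 of a pair of mutually exclusive exons. The exons are shown because the transcript results below turn on reads that tell them apart. Both lie on the plus strand of chromosome 9 (GRCm38), the M1 exon at chr9:59675029-59675195 and the M2 exon at chr9:59675568-59675734. Each is a coding exon of 167 bases. Capitals mark the 64 positions at which they differ, and the other 103 positions (61.7%) are identical.
M1 exon: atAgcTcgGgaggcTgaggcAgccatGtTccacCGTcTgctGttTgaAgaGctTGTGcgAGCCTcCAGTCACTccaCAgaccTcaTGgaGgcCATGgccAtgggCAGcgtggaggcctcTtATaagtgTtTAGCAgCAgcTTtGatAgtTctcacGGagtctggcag
M2 exon: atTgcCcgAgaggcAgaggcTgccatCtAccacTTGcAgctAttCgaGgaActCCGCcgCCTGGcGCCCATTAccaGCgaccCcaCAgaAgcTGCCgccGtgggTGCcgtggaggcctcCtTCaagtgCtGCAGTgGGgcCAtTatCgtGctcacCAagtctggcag

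The libraries held 21112071 to 24291056 estimated counts, and a count of 0 would allow up to 0.113 to 0.144 CPM (3 counts, counting error only). CPM here is the estimated count scaled to equal effective library sizes. Myod1 ranged over 269 to 330.1 CPM in F/R/C, 7.21 to 19.0 CPM in MyoD and 0.403 to 6.0 CPM in MEF libraries, and the counts cannot tell an introduced copy from the gene of the cell. The summed level of 10 skeletal muscle markers (Acta1, Ckm and others) was 35008 to 49265 CPM with F/R/C, 990.1 to 3229 CPM with MyoD alone, and 6.0, 4.35 and 577 CPM in MEF replicates 1 to 3. MEF replicate 3 thus stood far above both other MEF libraries in muscle transcripts. MyoD replicate 3 was likewise the highest of its group. The fibroblast markers summed to 5319 to 8039 CPM with F/R/C, 8616 to 34594 CPM with MyoD alone and 19884 to 82361 CPM in untreated MEFs. Col1a1, Col1a2 and Col3a1 made up most of that sum. Of the 10 fibroblast markers 0 were called higher and 3 lower in F/R/C against MEF (19.5% and 18.1% of all genes). Against MyoD, 0 were called higher and 2 lower (17.8% and 16.1% of all genes). The mean of Dcn was 241 CPM in F/R/C, 53.1 CPM in MyoD and 218 CPM in MEF libraries. In RNA from whole cultures, fewer cells of a type and less RNA per cell cannot be told apart, and the part that this muscle content has in the results below was not tested.

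F/R/C libraries had more transcripts of most of these genes than MEF libraries. Of the 10 genes, 6 rose (Slc2a4, Hk2, Gpi1, Tpi1, Pkm and Ldha) and 0 fell in F/R/C against MEF at an adjusted p under 0.05, where 37.6% of all genes were called, 19.5% higher and 18.1% lower (edgeR's quasi-likelihood test, p-values adjusted over all genes). The median log2 fold change was 1.52 for the 10 genes and -0.04 for all genes tested, and 9 of the 10 were positive. Against MyoD, 5 genes rose in F/R/C libraries (Slc2a4, Gpi1, Tpi1, Pkm and Ldha) and Hk1 fell, where 33.9% of all genes were called (17.8% higher, 16.1% lower), and the medians were 0.92 for the 10 genes and -0.02 for all genes. With the replicate number as a block, 7 of the 10 were called against MEF (43.8% of all genes), 7 against MyoD (40.3%) and 0 in MyoD against MEF (0.0827%). Without MEF replicate 3, the MEF library with most muscle transcripts, 6 genes were again called higher against MEF and 0 lower. Of all 16283 genes tested there, 2705 were higher and 2670 lower. Without MyoD replicate 3, 6 were called higher against MyoD and 0 lower. Of all 16260 genes tested there, 2756 were higher and 2514 lower. In either F/R/C comparison 6 genes were higher in all 3 F/R/C libraries than in all 3 of the other group, and Hk1 was lower in all. Of all genes, 53.2% had no such overlap against MEF (27.1% higher, 26.0% lower) and 49.8% had none against MyoD (26.6% higher, 23.2% lower). The comparisons against MEF and against MyoD share the F/R/C libraries. Between MyoD and MEF libraries edgeR called 0 of the 10 genes and 0% of all genes, although 732 genes had an unadjusted p under 0.05. DESeq2 called 157 genes higher and 13 lower there (0.984% of the genes it tested), again with 0 of the 10 among them.

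**Figure D1:**
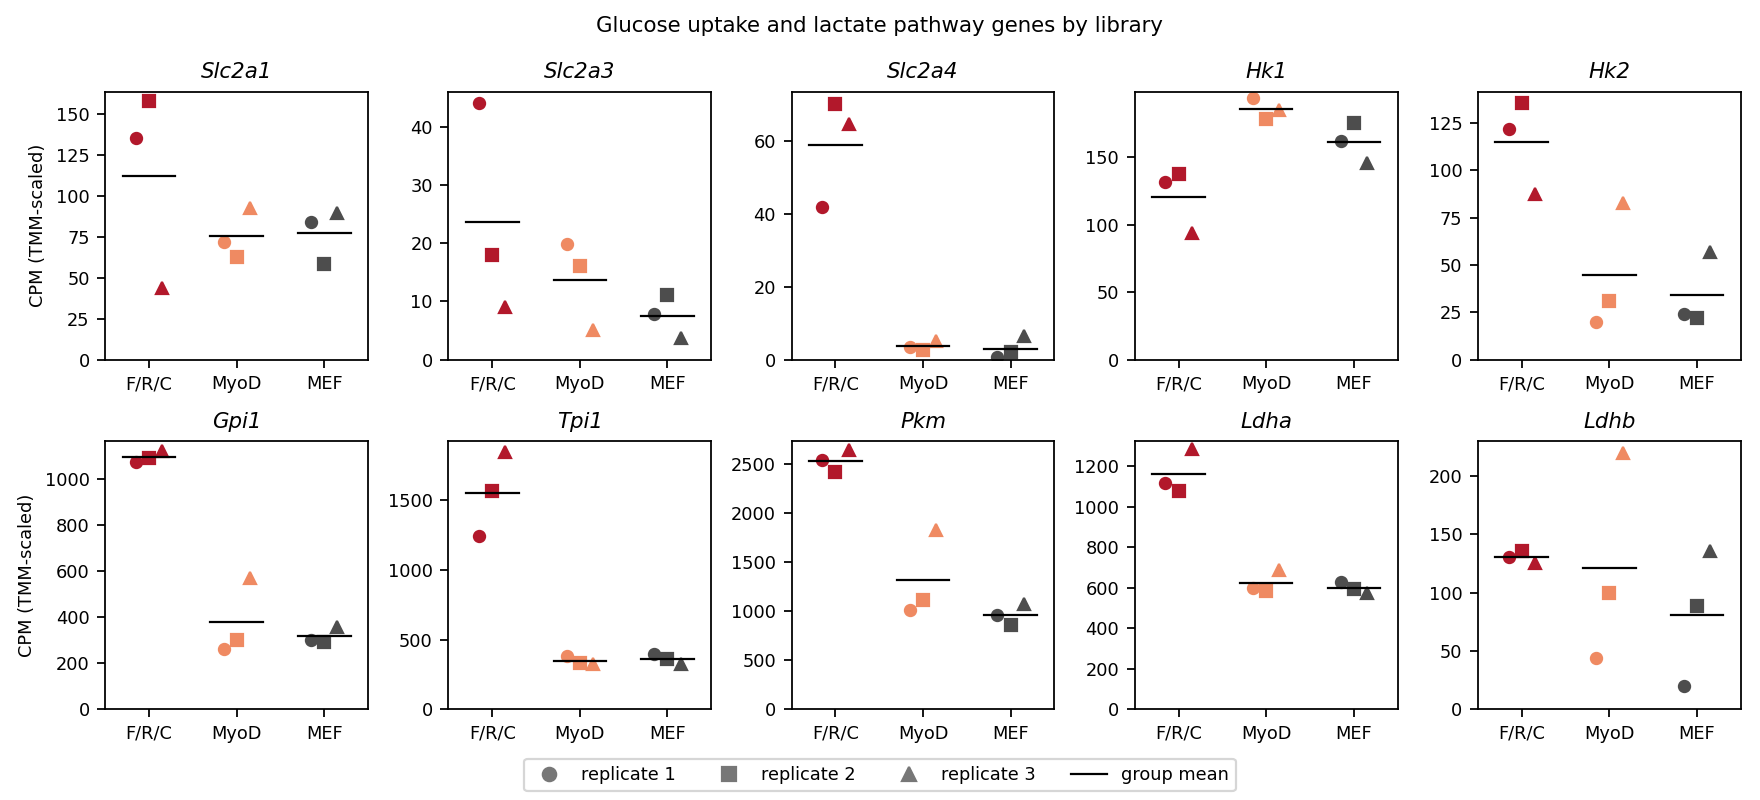
CPM (linear axes from 0) of each of the 10 genes in each library, with F/R/C on the left, MyoD in the middle and MEF on the right. Points are libraries, the marker gives the replicate number and the bar the group mean. For Slc2a4, Hk2, Gpi1, Tpi1, Pkm and Ldha all 3 F/R/C points lie above all MyoD and MEF points, and for Hk1 all lie below.

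Per length, the 10 genes together made up 0.612% of all TPM (kallisto's abundance, scaled for transcript length) in F/R/C libraries, 0.330% in MyoD libraries and 0.277% in MEF libraries. Their sum was 6442, 6437 and 5489 TPM in F/R/C replicates 1 to 3, against 2796, 3151 and 3952 TPM in MyoD libraries and 2703, 2720 and 2878 TPM in MEF libraries. Among the MyoD libraries replicate 3 was the highest. The order of mean levels in F/R/C libraries was Pkm, Tpi1, Gpi1, Ldha, Ldhb, Slc2a1, Hk1, Slc2a4, Hk2 and Slc2a3. The ranges overlapped between Pkm (1821 ± 246 TPM, SD, n = 3) and Tpi1 (1588 ± 153 TPM), and between Gpi1 (1229 ± 137 TPM) and Ldha (1120 ± 87.5 TPM). They also overlapped along Slc2a1, Hk1, Slc2a4 and Hk2 (66.1, 47.8, 38.4 and 35.7 TPM). The sums and orders count all annotated transcripts. Protein-coding transcripts held only 23.6% to 30.0% of Gpi1 and 25.2% to 43.2% of Slc2a1 over the libraries. The main protein-coding transcript had a mean of 307 TPM for Gpi1 and 1086 TPM for Ldha in F/R/C libraries. For Slc2a1, Hk1, Slc2a4 and Hk2 that mean was 24.9, 34.3, 31.1 and 29.5 TPM. In MEF libraries the order was Pkm, Ldha, Tpi1, Gpi1, Ldhb, Hk1, Slc2a1, Hk2, Slc2a3 and Slc2a4, so that Slc2a4 had the lowest mean of the 10 at 2.74 ± 2.83 TPM. Slc2a4 also had the lowest mean in MyoD libraries, at 3.32 ± 0.474 TPM, and in both groups its range overlapped that of Slc2a3.

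Slc2a4 (ENSMUSG00000018566, chr11:69942539-69948188, minus strand) encodes GLUT4, the insulin-responsive transporter of muscle and fat. It had 41.9, 70.1 and 64.6 CPM in F/R/C replicates 1 to 3, then 3.36, 2.72 and 5.2 CPM in MyoD libraries, and 0.744, 1.97 and 6.41 CPM in MEF libraries. The lowest F/R/C library lay above the highest of all the others, and the highest MEF value came from replicate 3, the MEF library with most muscle transcripts. Slc2a4 was 19.3-fold higher in F/R/C than MEF libraries (log2 fold change 4.27 ± 0.71 SE, adjusted p = 0.00260, edgeR) and 15.7-fold higher than in MyoD (3.97 ± 0.70, adjusted p = 0.00429). Without MEF replicate 3 the log2 fold change against MEF was 5.37 (adjusted p = 0.000540). GLUT4 is also an adipocyte product. The 8 adipocyte markers summed to 17.2, 81.5 and 13.0 CPM in F/R/C replicates 1 to 3. Their sums were 12.4 to 79.1 CPM in MyoD libraries and 31.2 to 95.3 CPM in MEF libraries. F/R/C replicate 2 was thus the highest of its group both in this sum and in Slc2a4. In F/R/C against MEF 0 of the 7 tested were called, where 37.6% of all genes were. The part that adipocytes have in the Slc2a4 level was not tested.

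Slc2a1 (ENSMUSG00000028645, chr4:119108711-119137983, plus strand) encodes GLUT1, the basal transporter of most cells. Its levels were 135, 158 and 43.4 CPM in F/R/C libraries, against 71.7, 62.3 and 92.6 CPM in MyoD libraries and 83.9, 58.4 and 89.5 CPM in MEF libraries. F/R/C replicates 1 and 2 were the highest of the 9 libraries and replicate 3 was the lowest, so the groups overlapped. The log2 difference of 0.54 ± 0.42 SE from MEF did not pass (adjusted p = 0.346, edgeR), and its 95% interval of -0.42 to 1.5 spans both directions. Without F/R/C replicate 3 the difference was 0.92 (adjusted p = 0.0296) from MEF and 0.95 (adjusted p = 0.0312) from MyoD.

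Slc2a3 (ENSMUSG00000003153, chr6:122727809-122801640, minus strand) encodes GLUT3, a high-affinity transporter best known from neurons. It was at 44.0, 17.9 and 8.98 CPM in F/R/C libraries, 19.8, 16.1 and 5.05 CPM in MyoD libraries and 7.86, 11.2 and 3.69 CPM in MEF libraries. Replicate 3 was the lowest in every group, and the groups overlapped. The log2 difference between F/R/C and MEF was 1.64 ± 0.70 SE with an adjusted p of 0.0941, and 1.49 with an adjusted p of 0.0126 when the replicate number was a block in the edgeR fit. DESeq2 also called it (1.67, adjusted p = 0.0425). Against MyoD it was 0.79 ± 0.68 (adjusted p = 0.394, edgeR).

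Together, the 3 transporters had 133, 154 and 56.1 TPM in F/R/C libraries, 65.1, 59.8 and 67.1 TPM in MyoD libraries, and 64.6, 49.4 and 69.3 TPM in MEF libraries. Slc2a4 made up 22.6%, 34.2% and 58.2% of that sum in F/R/C libraries, 4.84%, 4.95% and 5.75% in MyoD libraries, and 1.10%, 3.13% and 8.62% in MEF libraries. The F/R/C shares were all above the others, with a difference of 34.0 percentage points from MEF and 33.1 points from MyoD (exact permutation test, two-sided p = 0.1 each, the smallest that 3 against 3 libraries can give). In F/R/C replicate 3, which had the highest share, Slc2a4 was at 32.6 TPM and Slc2a1 at 21 TPM. In replicates 1 and 2 Slc2a1 was at 83.5 and 93.8 TPM. These Slc2a1 levels need care, since transcripts annotated as protein coding held 25.2% to 43.2% of them over the libraries. The main protein-coding transcript of Slc2a1 had 33.5, 36.1 and 5.29 TPM in F/R/C replicates 1 to 3. That of Slc2a4 had 24.4, 40.1 and 28.9 TPM, above Slc2a1 in replicates 2 and 3.

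Among the hexokinases, all F/R/C libraries lay above the others for Hk2 and below them for Hk1. Hk2 (ENSMUSG00000000628, chr6:82725025-82774454, minus strand), the hexokinase of muscle, had 122, 136 and 87.5 CPM in F/R/C libraries, against 19.9, 31.04 and 82.7 CPM in MyoD libraries and 23.9, 22.2 and 56.8 CPM in MEF libraries. The lowest F/R/C value was close to the rest, since MyoD replicate 3 came within 5 CPM of it, and MEF replicate 3 was the highest MEF library. Hk2 was 3.35-fold higher in F/R/C than MEF libraries (log2 fold change 1.75 ± 0.56 SE, adjusted p = 0.0374, edgeR). That call was lost without MEF replicate 1 or 2 or any 1 of the F/R/C libraries (adjusted p between 0.0620 and 0.123), with the fold still between 1.45 and 1.91 on the log2 scale. Against MyoD the difference of 1.37 ± 0.55 did not pass (adjusted p = 0.0865). With the replicate number as a block it did (1.69, adjusted p = 0.0270), as it did without MyoD replicate 3 (2.17, adjusted p = 0.0119).

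Hk1 (ENSMUSG00000037012, chr10:62268855-62379908, minus strand), the broadly expressed hexokinase, had 132, 137 and 93.5 CPM in F/R/C libraries, against 194, 178 and 185 CPM in MyoD libraries and 162, 176 and 146 CPM in MEF libraries. Hk1 fell to 1.54-fold below MyoD in F/R/C libraries (log2 fold change -0.62 ± 0.19 SE, adjusted p = 0.0328, edgeR), while the difference of -0.42 ± 0.19 from MEF did not pass (adjusted p = 0.111). The call against MyoD was lost when F/R/C replicate 1 or 3 or any 1 MyoD library was left out (adjusted p between 0.0556 and 0.0911).

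Per length, Hk1 and Hk2 together came to 93.7, 94.7 and 62.2 TPM in F/R/C libraries, 107, 108 and 117 TPM in MyoD libraries and 87.4, 96.2 and 95.6 TPM in MEF libraries. F/R/C replicates 1 and 2 were thus within the MEF range and replicate 3 was below it. Hk2 took 38.9%, 40.9% and 51.5% of the sum in F/R/C libraries, 7.95%, 10.7% and 25.8% in MyoD libraries, and 10.1%, 8.15% and 26.0% in MEF libraries. The F/R/C share exceeded MEF by 29.0 points and MyoD by 28.9 points (exact permutation test, two-sided p = 0.1 each, the smallest possible). MyoD and MEF means differed by 0.0869 points (exact p = 1). The TPM level of Hk2 needs care in F/R/C replicate 3, where protein-coding transcripts held 54.2% of it. Another 14.7 TPM there was assigned to a transcript annotated as processed. The main protein-coding transcript of Hk2 had 33.8, 37.3 and 17.4 TPM in F/R/C replicates 1 to 3. It had 17.8 TPM in MEF replicate 3 and 25.3 TPM in MyoD replicate 3, so for this transcript the groups overlapped in TPM.

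**Figure D2:**
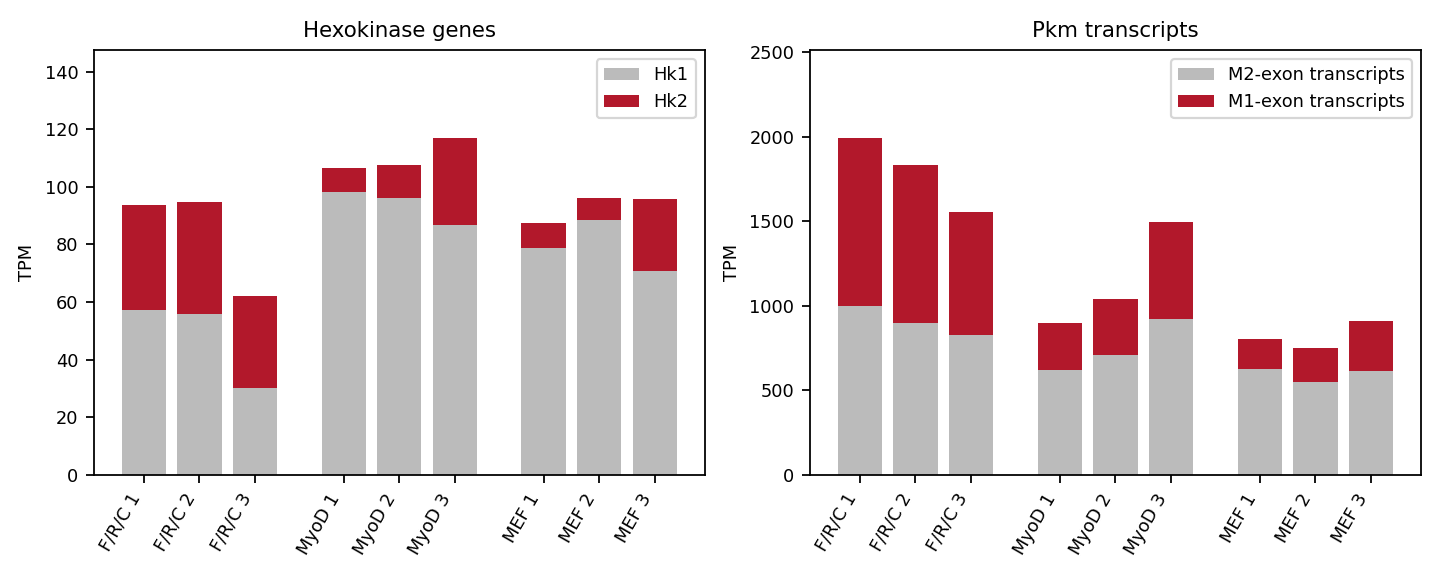
Left, TPM of Hk2 stacked on Hk1 in each library. Right, TPM of Pkm transcripts with the M1 exon stacked on those with the M2 exon. Bars start at 0 and run from F/R/C on the left to MEF on the right. The Hk2 part is 32.1 to 38.7 TPM in F/R/C libraries and 7.84 to 24.8 TPM in MEF libraries, on totals that overlap, whereas the Pkm total is higher in every F/R/C library than in every MEF library. In F/R/C replicate 3 the Hk2 part includes 14.7 TPM of a transcript not annotated as protein coding.

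Both enzymes of the middle of the pathway rose in F/R/C libraries against either other group. Tpi1 (ENSMUSG00000023456, chr6:124810586-124814296, minus strand), triose phosphate isomerase, had 1240.2, 1562 and 1846 CPM in F/R/C libraries, against 384, 333 and 323 CPM in MyoD libraries and 394, 361 and 326 CPM in MEF libraries. The lowest F/R/C value was over 3 times the highest of the others. It was 4.30-fold higher in F/R/C than MEF libraries (log2 fold change 2.10 ± 0.23 SE, adjusted p = 0.000517, edgeR) and 4.47-fold higher than in MyoD (2.16 ± 0.23, adjusted p = 0.000707). These were the smallest adjusted p-values among the 10 genes. MyoD and MEF differed by -0.06 ± 0.22 (95% interval -0.56 to 0.44).

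Gpi1 (ENSMUSG00000036427, chr7:34201330-34230336, minus strand), glucose 6-phosphate isomerase, had 1074, 1091 and 1121 CPM in F/R/C libraries, 263, 302 and 569 CPM in MyoD libraries, and 299, 293 and 356 CPM in MEF libraries. The F/R/C libraries were nearly equal and far above the rest, while MyoD replicate 3 stood above its group. Gpi1 was 3.46-fold higher in F/R/C than MEF libraries (log2 fold change 1.79 ± 0.31 SE, adjusted p = 0.00280, edgeR) and 2.90-fold higher than in MyoD (1.53 ± 0.30, adjusted p = 0.00652). Its TPM level needs care, since transcripts annotated as protein coding held 23.6% to 30.0% of it. Most of the rest was assigned to short transcripts annotated as targets of nonsense-mediated decay, Gpi1-206 and Gpi1-207. Slc2a1 was alike in this, with 25.2% to 43.2% in protein-coding transcripts.

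Pkm (ENSMUSG00000032294, chr9:59656368-59679375, plus strand), which makes pyruvate, had the highest mean level of the 10 genes per length in all groups. It had 2542, 2417 and 2643 CPM in F/R/C libraries, 1014, 1117 and 1829 CPM in MyoD libraries and 963, 858 and 1077 CPM in MEF libraries. F/R/C libraries were again all above the others. Pkm was 2.62-fold higher in F/R/C than MEF libraries (log2 fold change 1.39 ± 0.28 SE, adjusted p = 0.00594, edgeR). It was 1.92-fold higher than in MyoD (0.94 ± 0.28, adjusted p = 0.0314), a call that was lost when any 1 library other than MEF replicate 3 or MyoD replicate 3 was left out (adjusted p between 0.0532 and 0.121).

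Split by exon, Pkm transcripts of both forms rose in F/R/C libraries against MEF. Transcripts with the M1 exon (Pkm-202 and Pkm-203) had 992, 935 and 726 TPM in F/R/C libraries, 276, 333 and 577 TPM in MyoD libraries, and 179, 203 and 297 TPM in MEF libraries. The transcript with the M2 exon (Pkm-201) had 1002, 899.8 and 830.1 TPM in F/R/C libraries, 621, 707 and 919.6 TPM in MyoD libraries, and 624, 549 and 615 TPM in MEF libraries. The M1 form was thus higher in every F/R/C library than in any other library, whereas for the M2 form MyoD replicate 3 lay within the F/R/C range. Of the 8 Pkm transcripts tested, 3 rose in F/R/C against MEF, where 11.5% of all 44724 transcripts were called. These were Pkm-201 (log2 fold change 1.02 ± 0.26 SE, adjusted p = 0.0415), Pkm-202 (2.34 ± 0.41, adjusted p = 0.0109) and Pkm-203 (2.89 ± 0.54, adjusted p = 0.0141, annotated as a retained intron), all by edgeR on transcripts. Without MEF replicate 2 none of the 3 was called, and without MEF replicate 3 only 1 was. Against MyoD 0 Pkm transcripts passed, where 7.88% of all were called, with Pkm-202 nearest (1.51 ± 0.40, adjusted p = 0.0545), and between MyoD and MEF 0 passed, where 0.0112% were called.

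The M1 share of Pkm was 49.8%, 51.0% and 46.7% in F/R/C libraries, 30.8%, 32.0% and 38.6% in MyoD libraries, and 22.2%, 27.0% and 32.6% in MEF libraries. The mean of 49.1% ± 2.23 in F/R/C libraries exceeded the mean of 27.3% ± 5.19 in MEF libraries by 21.9 points and that of 33.8% ± 4.19 in MyoD libraries by 15.3 points (SD, n = 3; exact permutation test, two-sided p = 0.1 each, the smallest possible). Both forms were present in every library. MyoD exceeded MEF by 6.51 points (exact p = 0.3), with overlapping groups. Within the replicate numbers that difference was 8.53, 5.04 and 5.96 points, higher in MyoD for 3 of 3 numbers. The share rests on how reads were divided between transcripts that also differ at their ends, since Pkm-201 has 205 more bases at the 5′ end and 186 more at the 3′ end than Pkm-202. Of the 31-base words of Pkm-201, 5.83% were also found in Pklr or Gm49759, whose counts were 0.746% to 7.42% of those of Pkm over the libraries.

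Regulators of Pkm splicing are known from mammalian cells, where PTBP1, hnRNPA1 and hnRNPA2B1 favour the M2 exon. Of 8 genes listed as regulators of this splicing, whichever exon they favour, Rbm4 rose and Ptbp1 fell in F/R/C against MEF. The other 6 were not called, where 37.6% of all genes were called. Against MyoD 0 of the 8 were called higher and 1 lower, where 33.9% of all genes were called. Ptbp1 had 132, 112 and 76.2 CPM in F/R/C libraries, 282, 278 and 296 CPM in MyoD libraries, and 322, 292 and 316 CPM in MEF libraries. Every F/R/C value was below every other, a log2 fold change of -1.53 ± 0.22 SE against MEF (adjusted p = 0.00136, edgeR) and -1.42 ± 0.22 against MyoD (adjusted p = 0.00253). Rbm4 differed by 0.73 ± 0.21 from MEF (adjusted p = 0.0260, edgeR) and was not called against MyoD. Hnrnpa1 (0.47, adjusted p = 0.152) and Hnrnpa2b1 (0.03, adjusted p = 0.930) did not pass.

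Ldha (ENSMUSG00000063229, chr7:46841475-46855627, plus strand) encodes the muscle-type subunit of lactate dehydrogenase. It had 1117, 1079 and 1288 CPM in F/R/C libraries, 598, 585 and 687 CPM in MyoD libraries and 628, 593 and 573 CPM in MEF libraries. F/R/C libraries were all above the others, and the MyoD and MEF libraries overlapped. Ldha was 1.94-fold higher in F/R/C than MEF libraries (log2 fold change 0.96 ± 0.19 SE, adjusted p = 0.00581, edgeR) and 1.86-fold higher than in MyoD (0.90 ± 0.19, adjusted p = 0.00920), the smallest rise among the 6 genes called.

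Ldhb (ENSMUSG00000030246, chr6:142490249-142507957, minus strand) encodes the heart-type subunit. It had 130.2, 136 and 125 CPM in F/R/C libraries, 44.1, 100 and 219.7 CPM in MyoD libraries, and 20.0, 88.4 and 135 CPM in MEF libraries. The F/R/C libraries lay close together, whereas the MyoD and MEF libraries spread widely, and replicate 1 was the lowest and replicate 3 the highest in both. The log2 difference between F/R/C and MEF was 0.68 ± 0.68 SE (adjusted p = 0.462, edgeR) with a 95% interval of -0.87 to 2.23, which spans both directions. Within replicate numbers it was 2.70, 0.62 and -0.11. Ldhb made up 12.9% ± 1.33 of the summed TPM of both subunits in F/R/C libraries, 18.5% ± 10.2 in MyoD libraries and 14.2% ± 9.59 in MEF libraries (exact p = 0.8 against MEF and 0.5 against MyoD). Within replicate numbers the share was higher in MyoD than in MEF by 4.72, 2.09 and 6.14 points.

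**Figure D3:**
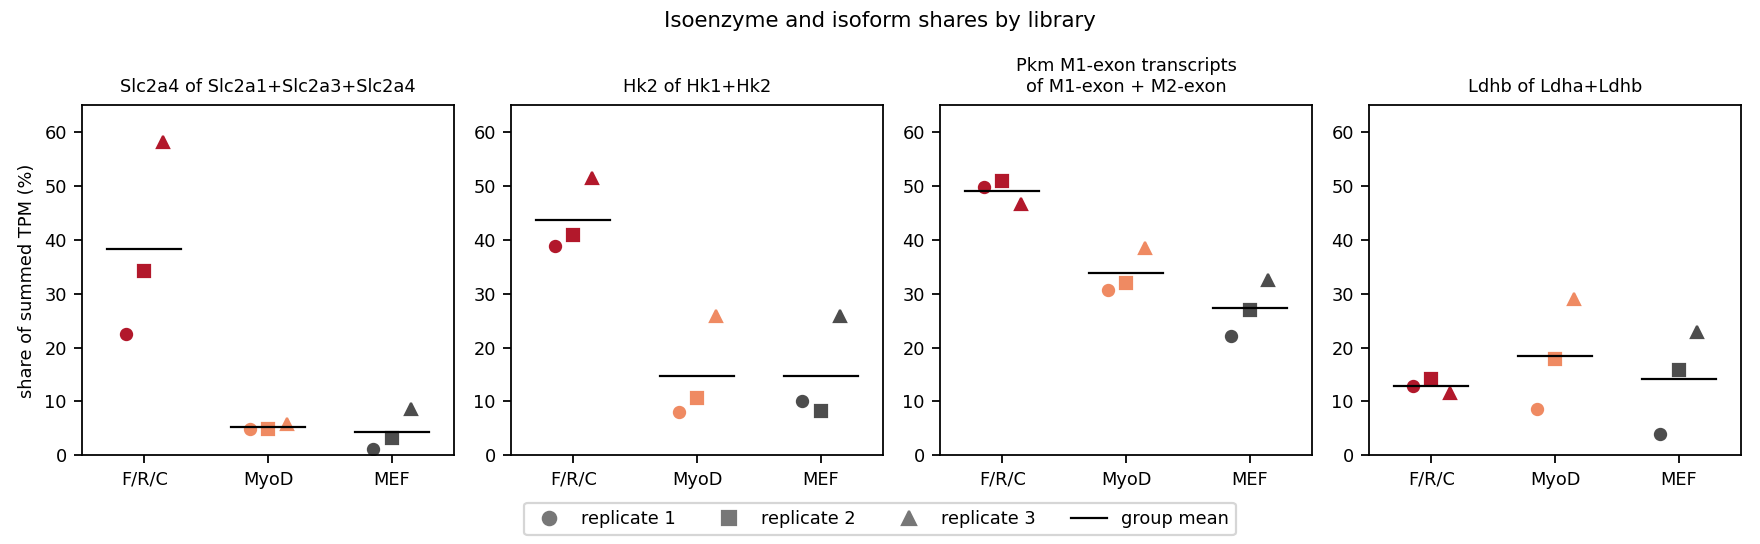
Share of summed TPM (%) per library, for Slc2a4 among 3 transporters, Hk2 among 2 hexokinases, M1-exon among M1- and M2-exon Pkm transcripts, and Ldhb among 2 lactate dehydrogenase subunits. Points are libraries, bars are group means, with F/R/C on the left and MEF on the right. In the first 3 panels the F/R/C points lie above all others, and in the Ldhb panel they lie inside the ranges of the MyoD and MEF libraries.

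The bases just before the start sites of the 8 members with a RefSeq promoter entry (GRCm38.p6; 11 promoters of 250 bases) were searched for ACGTG on both strands, the core shared by hypoxia-response elements and the CACGTG type of E-box. It was present in 4 of these 11 promoters and in 16.6% of all 32851 promoters. Slc2a3 and Slc2a4 were not searched. The promoters with the most matches, those of Ldha (chr7:46845554-46845803, plus strand) and Hk2 (chr6:82774455-82774704, minus strand), are shown with each match in capitals, written 5′ to 3′ along the gene.
Ldha promoter: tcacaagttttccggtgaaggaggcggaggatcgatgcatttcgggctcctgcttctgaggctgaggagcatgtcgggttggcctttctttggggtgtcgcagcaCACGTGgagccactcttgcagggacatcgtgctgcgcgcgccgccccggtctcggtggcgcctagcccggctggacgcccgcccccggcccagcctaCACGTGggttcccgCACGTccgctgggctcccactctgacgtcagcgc
Hk2 promoter: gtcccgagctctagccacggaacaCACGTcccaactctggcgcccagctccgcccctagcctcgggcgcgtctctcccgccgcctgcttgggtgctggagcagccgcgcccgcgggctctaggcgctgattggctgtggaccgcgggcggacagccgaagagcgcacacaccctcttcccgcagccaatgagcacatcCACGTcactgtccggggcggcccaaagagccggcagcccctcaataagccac
The Ldha stretch held 5 matches, counting each palindromic CACGTG on both strands, and its CACGTG words are also matches to CANNTG, which was in 66.2% of all promoters. A second Ldha start had 0 matches. Hk2 held 2, Slc2a1 and the second Pkm start held 1 each, and Gpi1, Tpi1, Hk1 and Ldhb held 0. The related word GCGTG was counted too, and was in 28.2% of all promoters. An Hk1 promoter held 3 of it, and Slc2a1, the second Ldha start and Ldhb held 1 each. Genes that rose in F/R/C against MEF were thus found both with ACGTG matches (Ldha, Hk2, Pkm) and without (Gpi1, Tpi1).

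**Figure D4:**
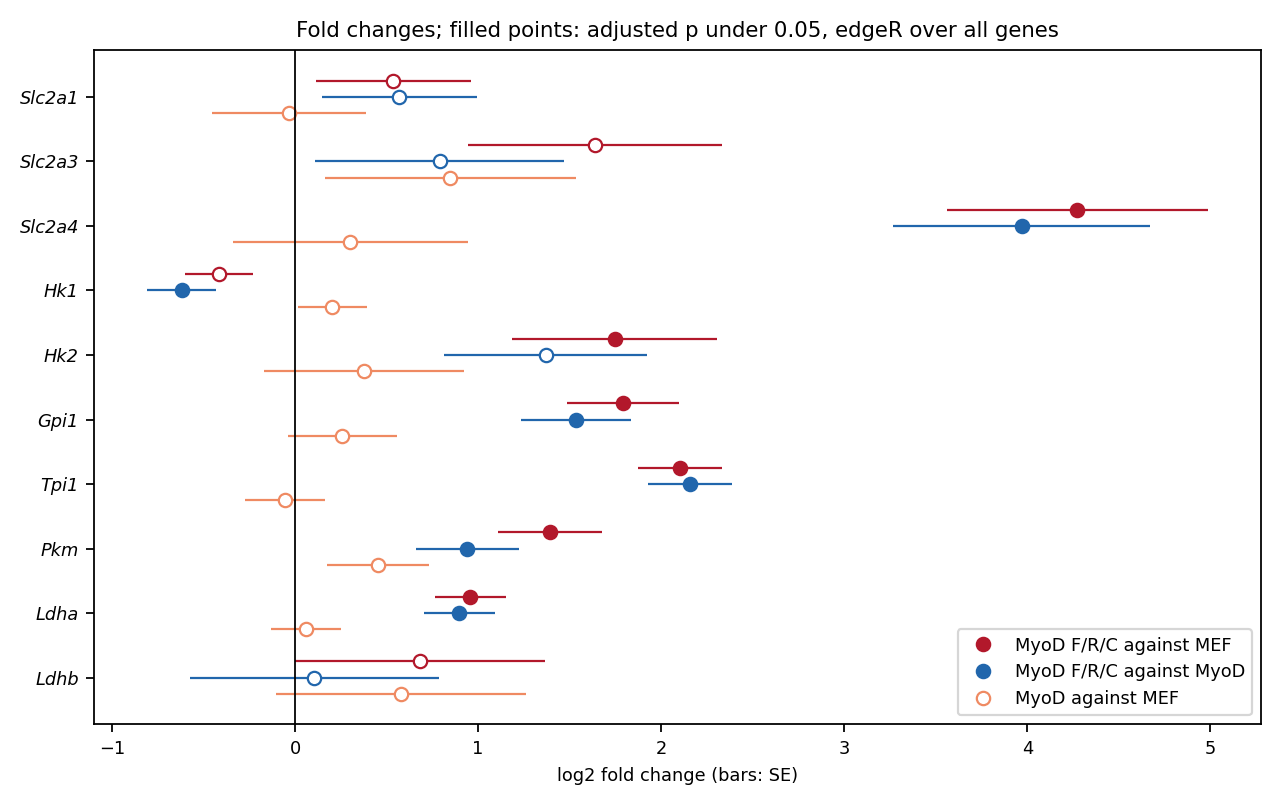
Log2 fold change (points) with SE (bars) of each gene in F/R/C against MEF, F/R/C against MyoD and MyoD against MEF. Filled points passed an adjusted p under 0.05 over all genes (edgeR). The F/R/C contrasts are filled for Slc2a4, Gpi1, Tpi1, Pkm and Ldha, and all 10 MyoD against MEF points are open, between -0.06 and 0.85.

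None of the 10 genes passed in MyoD against MEF, and the intervals were wide. The median log2 difference between MyoD and MEF libraries was 0.28 for the 10 genes and -0.01 for all genes, and 8 of 10 were positive. Only Hk1 had no overlap between the groups, where 7.52% of all genes had none (4.40% higher, 3.11% lower). It had 178 to 194 CPM in MyoD libraries and 146 to 176 CPM in MEF libraries, a log2 difference of 0.20 ± 0.19 SE (95% interval -0.22 to 0.63). The positive median depended on MyoD replicate 3. Without that library the median was -0.01 and 3 of 10 genes were positive. The intervals for Slc2a3 (-0.71 to 2.40), Slc2a4 (-1.16 to 1.76), Hk2 (-0.86 to 1.62) and Ldhb (-0.97 to 2.13) all include changes of more than 2-fold. They come from the fit without the replicate block, although same-numbered MyoD and MEF libraries deviated together (correlations 0.632 to 0.729). Differences between replicate numbers thus count in their width. With the block, 0 of the 10 genes were called (0.0827% of all genes).

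Within the replicate numbers, 7 of the 10 genes were higher in the F/R/C library than in the MEF library of the same number in 3 of 3 cases, Hk1 was lower in 3 of 3, and Slc2a1 and Ldhb were mixed. Of all genes, 32.7% were higher and 33.5% lower in 3 of 3. Against the MyoD library of the same number, the counts were also 7 higher and 1 lower (32.6% and 30.8% of all genes). In MyoD against MEF, Slc2a3, Hk1, Pkm and Ldhb were higher in 3 of 3 and Tpi1 lower (17.4% and 19.4% of all genes). For Slc2a4 the same-number log2 ratios to MEF were 5.82, 5.15 and 3.33. Hk2 gave 2.35, 2.61 and 0.62, so the third pair differed least. For Tpi1 the ratios were 1.65, 2.12 and 2.5, and for Slc2a1 they were 0.69, 1.43 and -1.04.

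Other genes of glucose handling were counted in F/R/C against MEF by lists. Of 19 further glycolytic enzymes tested, 10 rose and 1 fell, where 19.5% of all genes were called higher and 18.1% lower, with a median log2 fold change of 1.18. Pfkm, the muscle phosphofructokinase, rose 2.90 ± 0.19 SE (adjusted p = 0.000178, edgeR), with 392, 541 and 506 CPM in F/R/C libraries and 61.3, 70.5 and 61.4 CPM in MEF libraries. Aldoa, the muscle aldolase, rose 3.06 ± 0.30 (adjusted p = 0.000375). Pfkfb2, which makes an activator of phosphofructokinase, fell by 1.02 on the log2 scale (adjusted p = 0.0337). Of 6 other transporter genes of the family tested, 1 rose and 2 fell, against 37.6% of all genes called in either direction. Slc2a6 rose 3.94 ± 0.68 (adjusted p = 0.00298), while Slc2a9, known as a urate transporter, and Slc2a10 changed by -2.71 ± 0.59 (adjusted p = 0.00796) and -2.0 ± 0.36 (adjusted p = 0.00351).

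Genes that bring GLUT4 to the cell surface were counted next, with 7 of 25 higher and 2 lower and a median of 0.24. That share of called genes was near the 37.6% of all genes (19.5% higher, 18.1% lower). Akt2, the kinase of the insulin response in muscle and fat, rose 1.36 ± 0.27 SE (adjusted p = 0.00571, edgeR). Pdpk1, which activates it, rose 1.05 ± 0.22 (adjusted p = 0.00648). The small GTPases Rab8a and Rac1 fell by 0.67 and 0.66 on the log2 scale (adjusted p = 0.00861 and 0.0244). Among 6 genes of monocarboxylate and lactate handling tested, Slc16a3, which encodes the lactate exporter MCT4, was the 1 that rose, and 2 fell (37.6% of all genes were called). Slc16a3 had 150.0, 158 and 106 CPM in F/R/C libraries, 5.86, 1.32 and 4.43 CPM in MyoD libraries, and 35.1, 1.89 and 2.91 CPM in MEF libraries. Its log2 fold change was 3.37 ± 1.06 against MEF (adjusted p = 0.0350) and 5.16 ± 1.16 against MyoD (adjusted p = 0.0107). Slc16a7, which encodes MCT2, and Ldhd, the D-lactate dehydrogenase, changed by -2.90 ± 0.81 (adjusted p = 0.0223) and -1.87 ± 0.58 (adjusted p = 0.0323). Of 15 genes for the entry of pyruvate into mitochondria, 6 rose and 0 fell (median 0.44). The share called in either direction was near the 37.6% of all genes. All 6 calls were higher, where 19.5% of all genes were higher and 18.1% lower. Among them were the dehydrogenase complex genes Pdhb at 1.56 ± 0.19 (adjusted p = 0.000757, edgeR) and Pdhx at 1.42 ± 0.19 (adjusted p = 0.00101).

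Of 18 transcriptional regulators of glucose use, 6 rose and 1 fell in F/R/C against MEF, with a median of 0.44. The share called in either direction was near the 37.6% of all genes (19.5% higher, 18.1% lower). Mef2c, a muscle transcription factor of the MEF2 family, which binds the Slc2a4 promoter, had 980.4, 1054 and 1116 CPM in F/R/C libraries, 64.0, 63.9 and 175 CPM in MyoD libraries and 27.9, 26.0 and 58.9 CPM in MEF libraries, a log2 fold change of 4.8 ± 0.54 SE against MEF (adjusted p = 0.000568, edgeR). Mlxipl, which encodes the glucose-responsive factor ChREBP, rose 4.32 ± 0.49 (adjusted p = 0.000582) to levels of 4.71 to 7.25 CPM. Trp53 fell by 0.69 on the log2 scale (adjusted p = 0.00638). Hif1a, the hypoxia factor, did not pass (-0.52, adjusted p = 0.0906).

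**Figure D5:**
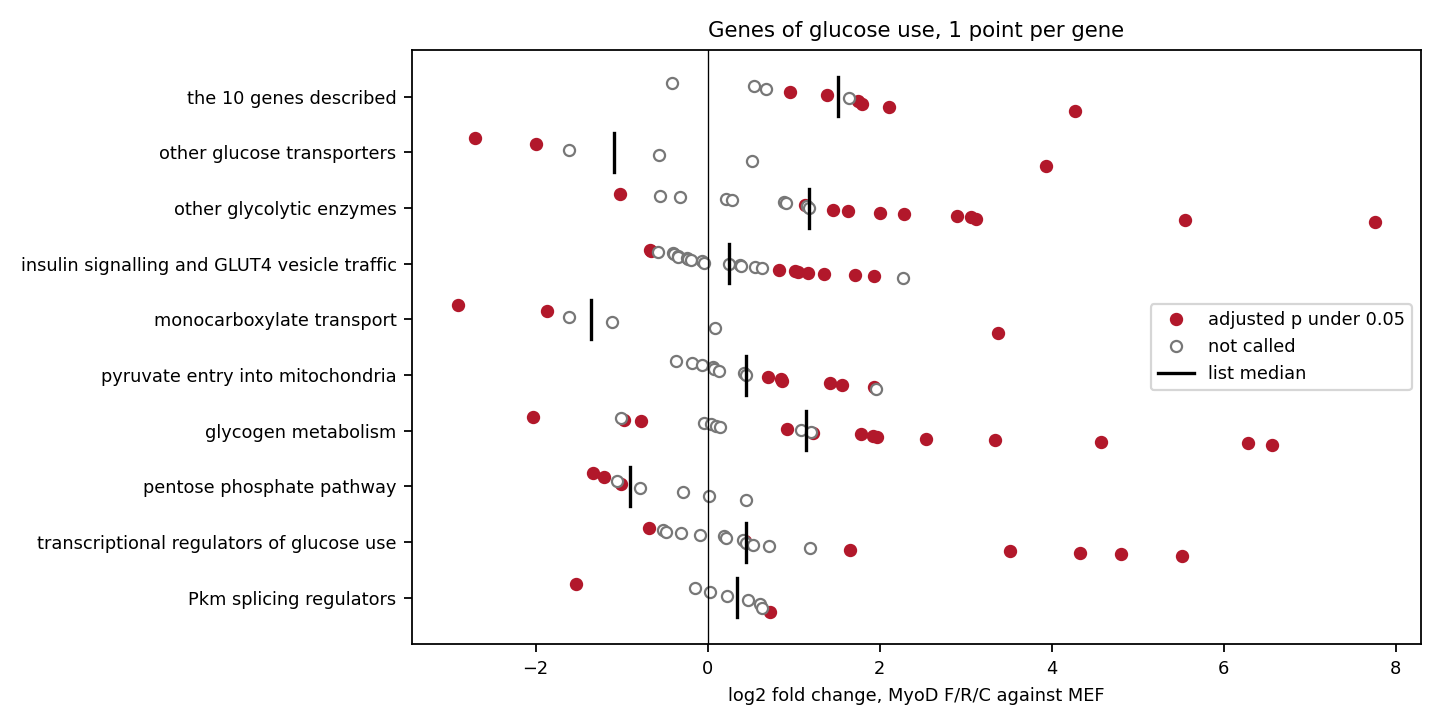
Log2 fold change in F/R/C against MEF of every tested gene (points) of the 10 genes described and of 9 further lists, with list medians as black bars. Red points passed an adjusted p under 0.05 (edgeR). The 10 genes have a median of 1.52 and 0 red points below 0, further glycolytic enzymes a median of 1.18, and the pentose phosphate genes a median of -0.90.

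Patterns over the 9 libraries were compared by the root mean square difference of log2 CPM, each gene centred on its own mean, over 10154 genes. Nearest to Slc2a4 were Tnfrsf19, Adssl1 and Jph1 (0.364, 0.376 and 0.395, against a spread of 2.2 for Slc2a4 itself). Nearest to Hk2 were Eaf1, Dysf and Cpeb4 (0.217 to 0.278, against 1.03). For Tpi1 they were Stard7, Prkaca and Pgm1 (0.141 to 0.159, against 1.01). Ldha had the closest neighbours, Dlst, Mrpl1 and Atp5a1 (0.0698 to 0.0929, against 0.447). For Hk1 they were Gna11, Fpgt and Lrsam1 (0.0943 to 0.118, against 0.310). Gpi1 was nearest to Bag2 (0.129), Slc2a1 to Scd1 (0.234), Ldhb to Tbx2 (0.292) and Slc2a3 to Srgap1 (0.519).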

How the data were processed

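RNA of 9 libraries was measured as polyadenylated RNA (TruSeq Stranded mRNA kit, per the labels). The submitters' processing notes name bcl2fastq 2.19, Trimmomatic 0.36, kallisto 0.44, edgeR 3.28 and GRCm38.p6. Options, annotation and use of strand are not given in the sources used here. For each transcript the authors deposited an estimated count and a TPM value. TPM was scaled by the authors for effective length, which differs between libraries, so a fold in TPM can differ from one in counts.

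Transcripts were joined to GENCODE M21 genes (121104 of 121843, the other 739 holding 0.200% to 0.494% of a library's counts), summed per gene and rounded. The test was the two-sided quasi-likelihood F test of edgeR 4.0.16 (R 4.3.3), after filterByExpr (counts of at least 10, totals of at least 15) and TMM scaling, in 1 model of all 9 libraries. P-values were adjusted by Benjamini and Hochberg over all genes of a comparison, with calls at an adjusted p under 0.05. SE is the absolute log2 fold change over the square root of F, and 95% intervals use the t quantile of the fit. Intervals and floors cover counting error and the spread between these libraries only. Transcripts were tested likewise. Shares use TPM and exact permutation tests. The scripts were tested on simulated data.

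The 10 genes and all lists were chosen with earlier results of these data known. Named were all members, of each list up to 2 genes of smallest adjusted p per direction in F/R/C against MEF, and the 3 genes nearest in pattern to Slc2a4, Hk1, Hk2, Tpi1 and Ldha. The rule held 3 for each member, but Gpi1, Slc2a1, Ldhb and Slc2a3 are given with the nearest only. Hnrnpa1, Hnrnpa2b1 and Hif1a were added after their values were seen. Same-numbered libraries deviated together between MyoD and MEF (correlations 0.632 to 0.729) and between F/R/C and MEF (0.101 to 0.151), which was taken as pairing. Between F/R/C and MyoD the same-number correlations were 0.0837, 0.119 and 0.164. These were not taken as pairing, although they were similar in size to those between F/R/C and MEF. They also lay above every correlation between different numbers there (highest 0.0447). The main fit held no replicate block in any comparison. Alternatives were DESeq2 1.42.0, other scalings and filters, counts rebuilt from TPM, fits of 2 groups, a replicate block, and leaving out each library. The genes nearest in pattern to Pkm are not reported here.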

Additional observations from a re-analysis of the deposited data

How the results depend on the processing

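Against MEF, 5 to 7 of the 10 genes were called in F/R/C libraries under all alternatives run, and against MyoD 4 to 7. Between MyoD and MEF 0 were called under any. The number of all genes called against MEF ran from 4372 of 16227 (without MEF replicate 2) to 6919 of 19362 (DESeq2). Against MyoD it ran from 3620 of 16130 (without MyoD replicate 2) to 6363 of 18842 (DESeq2). The replicate block gave 7 calls against MEF (adding Slc2a3), 7 against MyoD (adding Hk2) and 0 between MyoD and MEF, and changed no other call of a member. Of the recomputed fold changes of members, 464 kept direction and side of the threshold, 21 lost the call, 6 gained it and 19 changed sign, all of those for differences that were not called. Calls lost beside those given above were Hk1 against MyoD with no filter beyond 1 count (adjusted p = 0.0665, edgeR), Hk2 against MEF with counts rebuilt from TPM (0.0606), and Pkm against MyoD with no filter (0.0672) or with only those groups fitted (0.0736). The cause was not tested.

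The Pkm transcripts called against MEF ranged from 0 to 3 with 1 library left out. Against MyoD they ranged from 0 to 1, and 1 was called with total counts as the only scaling and with the replicate block. Scaling by total counts moved the median of all genes to -0.13 (F/R/C against MEF), -0.20 (F/R/C against MyoD) and 0.09 (MyoD against MEF).

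Signs changed in MyoD against MEF for Slc2a1 (0.0619 with total counts, 0.0102 with no filter) and Tpi1 (0.0447 with total counts), and for Ldhb in F/R/C against MyoD (-0.0443 with total counts). With 1 library left out, log2 differences of MyoD against MEF ranged from -0.21 to 0.15 for Slc2a1, -0.14 to 1.47 for Slc2a4, -0.43 to 0.97 for Hk2, -0.16 to 0.46 for Gpi1, -0.14 to 0.0344 for Tpi1, -0.0179 to 0.17 for Ldha and -0.18 to 1.18 for Ldhb. In F/R/C against MyoD they ranged from -0.0198 to 1.18 for Slc2a3 and -0.30 to 0.85 for Ldhb. Shares ranged likewise, in points, from -0.698 to 3.06 (Slc2a4), -5.40 to 5.71 (Hk2) and -0.930 to 9.26 (Ldhb) in MyoD against MEF, and from -6.44 to 3.04 for Ldhb in F/R/C against MEF. The F/R/C differences in the shares of Slc2a4, Hk2 and M1 stayed positive in counts, in protein-coding transcripts alone and with any 1 library left out, although the Slc2a4 difference from MEF was 49.5 points in protein-coding transcripts alone.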

Other observations

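Glycogen genes, which store and release glucose inside the cell, had 20 members tested. Of these, 10 rose and 3 fell in F/R/C against MEF, where 37.6% of all genes were called, with a median log2 fold change of 1.14. Pgm1, which links glucose 6-phosphate to glycogen, had 189, 188 and 211 CPM in F/R/C libraries and 56.1, 45.4 and 48.8 CPM in MEF libraries (1.97 ± 0.15 SE, adjusted p = 0.000227, edgeR). Gys1, the muscle glycogen synthase, rose 3.35 ± 0.31 (adjusted p = 0.000308). Pygb, the brain-type phosphorylase, fell by 2.04 on the log2 scale (adjusted p = 0.000265), and Gaa, the lysosomal glucosidase, by 0.97 (adjusted p = 0.00706).

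The pentose phosphate pathway, which branches off at glucose 6-phosphate, had 8 genes tested. Of these, 0 rose and 3 fell, with a median of -0.90, a share of called genes near the 37.6% of all genes (18.1% lower). Tkt, transketolase, had 97.3, 109 and 90.2 CPM in F/R/C libraries and 231, 274 and 244 CPM in MEF libraries (-1.34 ± 0.16, adjusted p = 0.000727, edgeR). Rpe fell by 1.01 on the log2 scale (adjusted p = 0.00327). G6pdx, the first enzyme of the pathway, had a log2 fold change of -1.20 ± 0.27 (adjusted p = 0.00870) and was named after its value was seen. Against MyoD the counts were also 0 higher and 3 lower, where 33.9% of all genes were called.

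Transcripts annotated as retained introns held 3.22%, 0.787% and 0.620% of the summed TPM of the 10 genes in F/R/C replicates 1 to 3, against 1.12%, 3.17% and 0.998% in MyoD and 2.03%, 0.943% and 0.990% in MEF replicates 1 to 3.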
